A study of Mus musculus with 90 samples.

Results

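The B cell genes described here are Cd79a, Cd79b, Ms4a1, Pax5, Blk, Cd22, Cr2 and Fcer2a, which are 8 of the 20414 genes listed in the expression table. Their rows were taken by Entrez identifier. They were picked with results of these libraries known, for their levels in duodenum, vein and aorta in estrus and diestrus with spleen as the reference, so the levels between tissues and the phases in duodenum, vein and aorta are a description, and only the phases in spleen and in the 11 other tissues were compared with a test. The libraries came from female C57BL/6 mice, 10 weeks old by the labels, without treatment or transgene. The phase of each mouse was read from a methylene blue stain of vaginal secretions, followed daily. By the paper, serum estrogen and progesterone of mice were measured as a further aid. From these mice 15 whole tissues were taken in estrus and in diestrus, with 3 libraries for each tissue and phase and 90 in all. All tissues of a phase came from the same 3 mice by the methods, so libraries of different tissues, and values pooled over tissues, are not independent. The labels do not say which libraries share a mouse.

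B cells are the lymphocytes that make antibodies. Each carries a membrane immunoglobulin paired with the signalling chains CD79A and CD79B, which recruit kinases when antigen binds, and coreceptors on the cell surface raise or dampen that signal. B cells are gathered in the follicles of spleen, lymph nodes and the Peyer's patches of the small intestine. When they become antibody-secreting plasma cells, which fill the lamina propria of the gut, they lose much of the B cell programme, including PAX5, the transcription factor that holds B cell identity, and CD20, the surface protein encoded by Ms4a1.

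The promoters of 3 of the genes are shown because the genes moved together across libraries and because motifs of factors known from B cell promoters can be looked up in them. A promoter window, from 250 bases before to 50 bases after the annotated start (RefSeq, GRCm38.p6), was matched for 5 of the 8 genes, which were Cr2, Pax5, Cd79a, Cd22 and Fcer2a. Capitals mark exact matches, on either strand, to CCCNNGGG (the core bound by EBF1), CAGGTG (an E-box, bound by E2A), GGAAGT (bound by Ets factors) or ATGCAAAT (the octamer, bound by OCT factors). Each sequence reads 5′ to 3′ along the strand of its gene, at chr7:24897247-24897546 (+ strand), chr7:30878979-30879278 (- strand) and chr1:195176670-195176969 (- strand).
Cd79a: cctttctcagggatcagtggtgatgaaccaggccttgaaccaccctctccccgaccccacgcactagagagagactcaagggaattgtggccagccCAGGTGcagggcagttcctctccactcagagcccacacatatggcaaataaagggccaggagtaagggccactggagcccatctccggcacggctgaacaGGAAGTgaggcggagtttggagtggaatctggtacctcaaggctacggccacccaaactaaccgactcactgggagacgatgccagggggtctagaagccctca
Cd22: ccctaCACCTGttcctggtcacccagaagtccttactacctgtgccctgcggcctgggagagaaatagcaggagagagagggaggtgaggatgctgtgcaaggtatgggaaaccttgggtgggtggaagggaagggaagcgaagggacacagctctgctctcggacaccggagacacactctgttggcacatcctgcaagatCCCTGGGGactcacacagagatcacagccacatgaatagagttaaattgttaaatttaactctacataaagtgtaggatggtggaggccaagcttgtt
Cr2: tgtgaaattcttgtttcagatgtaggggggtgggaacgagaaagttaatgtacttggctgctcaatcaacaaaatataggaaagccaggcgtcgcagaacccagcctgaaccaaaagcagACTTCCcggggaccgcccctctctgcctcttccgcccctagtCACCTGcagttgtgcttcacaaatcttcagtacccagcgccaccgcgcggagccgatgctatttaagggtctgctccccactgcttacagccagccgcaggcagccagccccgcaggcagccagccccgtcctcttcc
The Cd79a window held an E-box at -154 and an Ets match at -54, counted from the start as 0. The Cd22 window held the EBF1 core at -48 and an E-box at -245, and the Cr2 window an Ets match at -130 and an E-box at -88. The octamer was in none of the windows of the 5 genes, and the Pax5 window held none of the 4 motifs. Of the 32851 promoter windows in the table, 13.671% held the EBF1 core, 1.735% the octamer, 20.212% the E-box and 23.771% the Ets motif, so matches other than the octamer are frequent among all promoters. These matches are descriptions of the letters and were not tied to binding.

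The values were read as FPKM, although the table names no unit. FPKM is a measure of the fragments of a gene corrected for its transcript length and for the size of the library, so that levels of different genes can be set side by side. Reads per library, approximated from the smallest steps between values, ranged from 9.04M to 17.98M in 89 libraries, and 1 read on a transcript of 1 kb was worth 0.0556 to 0.111 FPKM there. The library of brown adipose tissue estrus replicate 3 came to 0.0759M reads. It listed 12048 genes at 0, the 8 B cell genes among them, against 2404 to 4820 genes at 0 in the others.

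Spleen held by far the most RNA of the B cell genes, and its 8 levels were stable across the 6 libraries. Cd79a and Cd79b, the signalling chains of the B cell receptor, stood at 991 ± 114 and 462 ± 32.9 FPKM (SD, n = 6). Ms4a1, which encodes CD20, stood at 302 ± 32.7 FPKM. Pax5 was at 123 ± 4.50 FPKM and Blk, a Src family kinase of B cells, at 101 ± 5.21 FPKM. Cd22, an inhibitory coreceptor, was at 234 ± 21.7 FPKM. Cr2, the complement receptor CD21 of B cells and follicular dendritic cells, and Fcer2a, the low-affinity IgE receptor CD23, stood at 116 ± 11.1 and 166 ± 22.2 FPKM.

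To compare tissues, each gene's mean FPKM was divided by its spleen mean, and the median over the 8 genes was taken as the level of a tissue. Duodenum came next to spleen at 4.56%, followed by vein at 1.38% and aorta at 0.676%. Liver (0.196%), white adipose tissue (0.160%), womb, that is the uterus (0.129%), ovary (0.124%) and kidney (0.103%) followed, and then brown adipose tissue (0.0844%), heart (0.0713%), hypothalamus (0.0599%), stomach (0.0476%), cerebrum (0.0429%) and muscle (0.0259%). No tissue outside spleen had a level above 5% of spleen. Of the 14 pairs of neighbours in this order, the ranges of the libraries were separate in 1, spleen and duodenum, and overlapped in the other 13. Single libraries set the order behind spleen. Without duodenum estrus replicate 1, the level of duodenum was 1.30%, without vein estrus replicate 3 that of vein was 0.250%, and without aorta diestrus replicate 3 that of aorta was 0.426%. In tissue RNA, fewer B cells and less of these RNAs per B cell cannot be told apart.

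**Figure D1:**
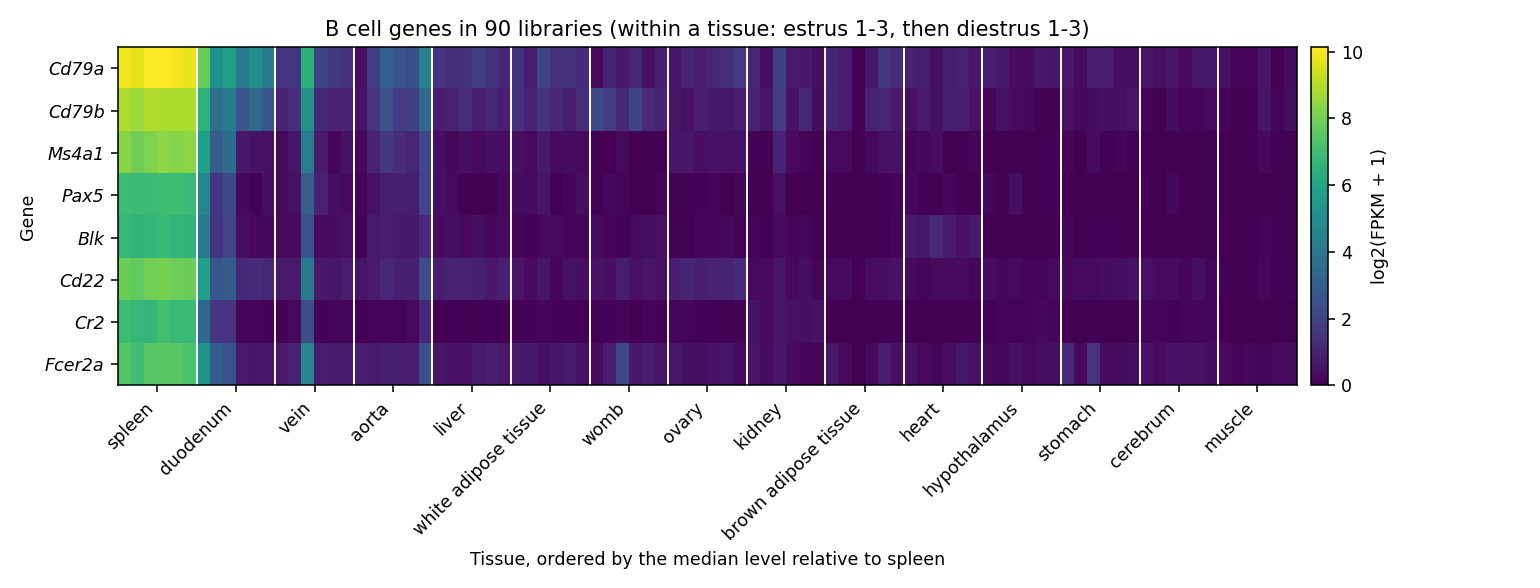
Levels of the 8 genes (rows) in 90 libraries (columns, grouped by tissue, 3 estrus libraries before 3 diestrus libraries), with colour for log2(FPKM + 1). Spleen is high throughout, the 3 estrus libraries of duodenum and vein estrus replicate 3 stand out next, and duodenum in diestrus keeps Cd79a and Cd79b while the other 6 genes are near 0.

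In duodenum, all 8 genes had a higher mean in estrus than in diestrus, and 7 of them did not overlap between the phases. Of the 12410 genes tested in this tissue, 4.51% were higher in estrus without overlap and 22.1% lower, and 32.8% had the higher mean in estrus. As the duodenum contrast was used to choose the genes, nothing is read from their count. The median log2 fold change (estrus minus diestrus, on the log2(FPKM + 1) scale, which understates changes of low genes) was 2.46 over the 8 genes, against -0.16 over all genes tested.

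The receptor chains were present in both phases. Cd79a was at 233, 32.6 and 52.8 FPKM in the estrus libraries 1, 2 and 3 and at 16.2, 32.9 and 17.8 FPKM in the diestrus libraries. Its phases overlapped, since diestrus replicate 2 reached the level of estrus replicate 2, and its log2 fold change was 1.76 (limma SE 0.70). Cd79b was at 94.1, 12.5 and 16.96 FPKM in estrus and at 5.43, 9.30 and 5.33 FPKM in diestrus, a log2 fold change of 1.93 (SE 0.71). All 3 estrus libraries were above all 3 diestrus libraries for Cd79b, by a narrow margin at replicate 2 of both phases.

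The genes of mature B cell identity were nearly absent in diestrus. Ms4a1 was at 53.0, 6.40 and 11.1 FPKM in estrus and at 0.60, 0.39 and 0.38 FPKM in diestrus. On the log2(FPKM + 1) scale it had the highest fold change of the 8 genes, 3.54 (SE 0.69). By the ratio of the phase means of FPKM, Pax5 was higher, at 59.9 against 51.4 for Ms4a1. Pax5 was at 24.6, 2.10 and 3.88 FPKM in estrus and at 0.16, 0.05 and 0.30 FPKM in diestrus. Blk, the kinase, was at 15.8, 1.77 and 3.30 FPKM in estrus and at 0.30, 0.15 and 0.17 FPKM in diestrus. The diestrus values of Pax5 and Blk are low, so their ratios are imprecise. The log2 fold changes were 2.64 (SE 0.74) for Pax5 and 2.28 (SE 0.63) for Blk.

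The coreceptors were likewise lower in every diestrus library than in any estrus library. Cd22 was at 54.2, 5.43 and 6.68 FPKM in estrus and at 1.23, 1.31 and 1.12 FPKM in diestrus. Cr2, which lowers the threshold for antigen carrying complement, was at 9.35, 2.07 and 1.85 FPKM in estrus and at 0.11, 0.10 and 0.06 FPKM in diestrus. Fcer2a, typical of resting follicular B cells, was at 35.4, 6.64 and 4.87 FPKM in estrus and at 0.64, 0.54 and 0.56 FPKM in diestrus. Estrus replicate 1 was the highest library for every one of the 8 genes, at 4.41 to 8.12 times the next highest library of the tissue. Without it, the median log2 fold change was 1.59, and 7 of the 8 genes still did not overlap. No share over all genes was computed for that count.

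**Figure D2:**
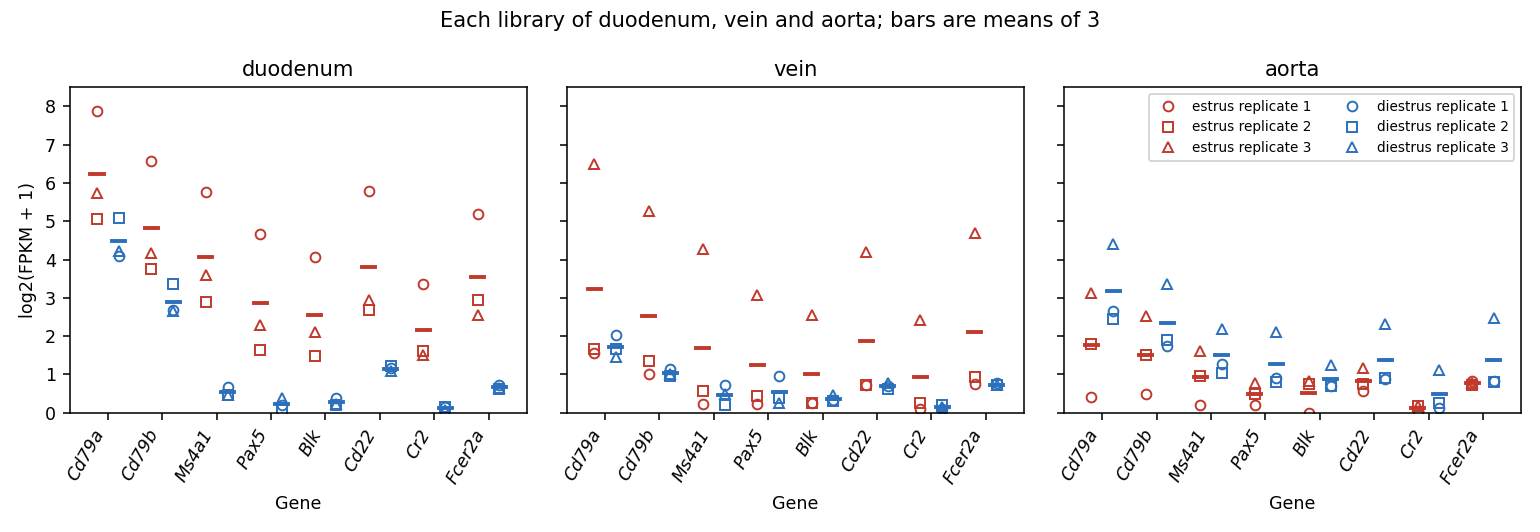
Level of each gene (x axis) as log2(FPKM + 1) (y axis) in single libraries of duodenum, vein and aorta, red for estrus and blue for diestrus, with a symbol for each replicate and bars for the mean of 3. In duodenum all estrus libraries are raised with replicate 1 on top, in vein only estrus replicate 3 stands apart, and in aorta diestrus replicate 3 is the highest library.

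The proportions between the genes differed between the 2 phases of duodenum. In spleen the ratio of Cd79a to Ms4a1 lay between 2.79 and 3.82 in the 6 libraries. It was 5.09 at most and 4.39 at least in the 3 estrus libraries of duodenum, and 27.0, 84.2 and 46.8 in diestrus libraries 1, 2 and 3. The Cd79a level in diestrus was 1.64% to 3.31% of the spleen mean, and that of Cd79b 1.15% to 2.01%, while Ms4a1 was at 0.126% to 0.198% and Cr2 at 0.0518% to 0.0950%. Cd22 was at 0.479% to 0.560% and Fcer2a at 0.326% to 0.386%. The ratio of Cd79a to Cd79b was 1.96 to 2.37 in spleen and 2.47 to 3.53 in duodenum over both phases, a much narrower span. The plasma cell gene Jchain, which encodes the chain that joins secreted IgA and IgM, was at 579, 1501 and 828 FPKM in the diestrus libraries 1, 2 and 3 and at 162, 726 and 839 FPKM in the estrus libraries, above its spleen mean of 406 FPKM in 5 of the 6. Of the 6 diestrus and estrus libraries, the one lowest in Jchain was the one highest in the 8 B cell genes, estrus replicate 1. Mzb1, another plasma cell gene, was not low in that library, and only diestrus replicate 2 was higher for it.

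**Figure D3:**
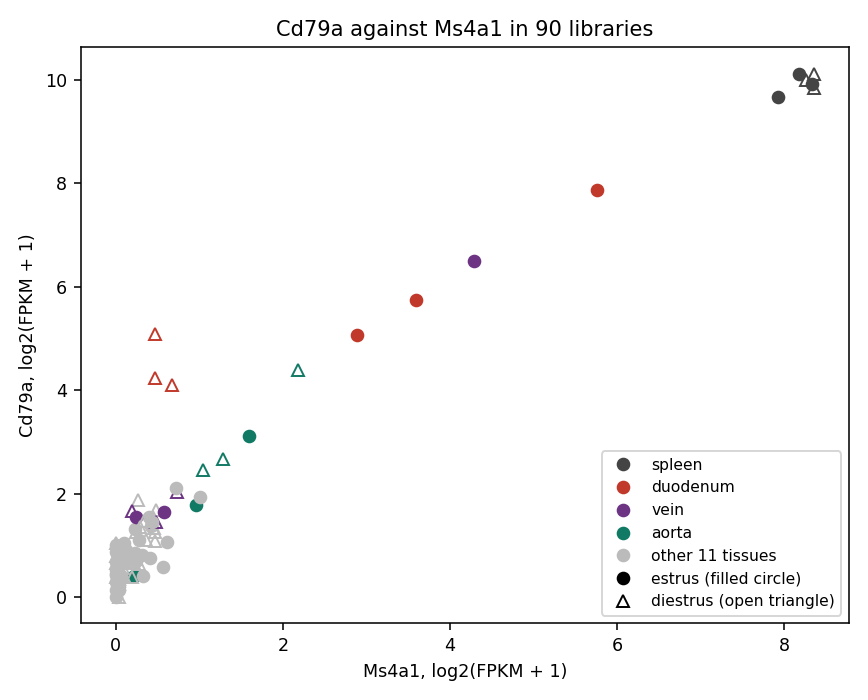
Cd79a (y axis) against Ms4a1 (x axis), both as log2(FPKM + 1), in the 90 libraries, coloured by tissue with filled circles for estrus and open triangles for diestrus. Spleen, estrus duodenum, vein estrus replicate 3 and aorta lie along a band, and the 3 diestrus libraries of duodenum lie above it, with Cd79a to Ms4a1 ratios of 27.0 to 84.2.

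In the libraries of duodenum in estrus and in the highest libraries of vein and aorta, the 8 genes lay closer together as percents of spleen, with Cr2 below Cd22 and Fcer2a. In duodenum estrus replicate 1 the genes ranged from 8.07% of spleen (Cr2) to 23.5% (Cd79a), and in vein estrus replicate 3 from 3.74% (Cr2) to 15.0% (Fcer2a). Aorta diestrus replicate 3 ranged from 1.00% (Cr2) to 2.75% (Fcer2a). The ratio of Fcer2a to Cr2 was 1.19 to 1.76 in spleen, 2.63 to 3.78 in duodenum in estrus, 5.72 in vein estrus replicate 3 and 3.92 in aorta diestrus replicate 3.

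**Figure D4:**
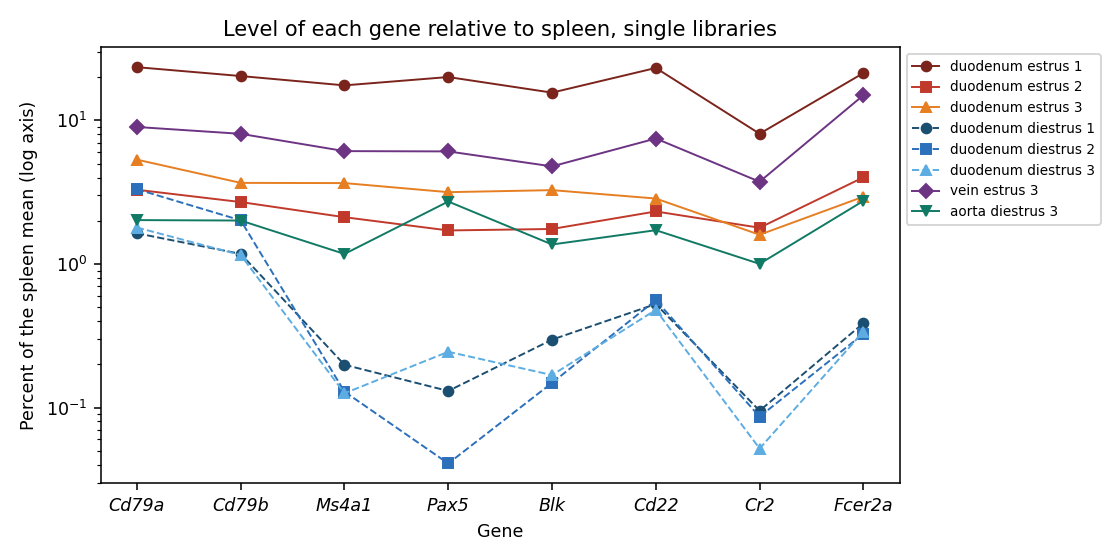
Level of each gene (x axis) as a percent of its spleen mean (y axis, log scale) in 8 single libraries, the 6 of duodenum, vein estrus replicate 3 and aorta diestrus replicate 3. Lines of estrus duodenum, vein and aorta run roughly level with a dip at Cr2, and the dashed lines of diestrus duodenum fall from Cd79a and Cd79b to the other genes.

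In vein, the 8 genes had a higher mean in estrus, and none was without overlap, since 1 library carried the difference. Of the 13239 genes tested, 33.0% had the higher mean in estrus, and 5.28% were higher and 12.9% lower without overlap. Cd79a was at 1.93, 2.15 and 89.2 FPKM in estrus and at 3.10, 2.16 and 1.75 FPKM in diestrus. Ms4a1 was at 0.18, 0.49 and 18.5 FPKM in estrus and at 0.66, 0.14 and 0.40 FPKM in diestrus. Estrus replicate 3 was thus far above the other 5 libraries, which did not separate by phase.

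The same library was highest for the other genes of the set. Cd79b was at 1.00, 1.53 and 37.2 FPKM in estrus and at 0.96 to 1.21 FPKM in diestrus, and Fcer2a at 0.67, 0.91 and 24.8 FPKM in estrus and 0.64 to 0.70 FPKM in diestrus. Pax5 reached 7.46 FPKM in estrus replicate 3, Blk 4.83, Cd22 17.5 and Cr2 4.33 FPKM. Over the 8 genes, estrus replicate 3 stood at 8.02 to 28.8 times the next highest library of vein. The median log2 fold change was 1.204 (range 0.66 to 1.52), against -0.10 over all genes tested, and turned to -0.02 without estrus replicate 3. Without estrus replicate 1, 3 genes were without overlap, and 1 gene without estrus replicate 3, diestrus replicate 1 or diestrus replicate 3. No share over all genes was computed for these sets, so nothing is read from these counts.

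In aorta the direction was the opposite, with all 8 genes lower on average in estrus. Of the 12553 genes tested, 2.39% were higher and 9.54% lower in estrus without overlap, and 42.6% had the higher mean in estrus. Cd79a was at 0.32, 2.44 and 7.69 FPKM in estrus and at 5.35, 4.46 and 20.0 FPKM in diestrus. Cd79b was at 0.41, 1.85 and 4.71 FPKM in estrus and at 2.35, 2.73 and 9.27 FPKM in diestrus. Both chains overlapped between the phases, and diestrus replicate 3 was the highest library and estrus replicate 1 the lowest.

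Pax5 was the 1 gene without overlap in aorta, at 0.14, 0.40 and 0.70 FPKM in estrus and at 0.87, 0.73 and 3.34 FPKM in diestrus. Ms4a1 was at 0.16, 0.94 and 2.03 FPKM in estrus and at 1.43, 1.06 and 3.55 FPKM in diestrus. Fcer2a was at 0.65 to 0.78 FPKM in 5 libraries and at 4.55 FPKM in diestrus replicate 3, which was also the highest for Cd22 (4.02 FPKM), Blk (1.38 FPKM) and Cr2 (1.16 FPKM). The median log2 fold change was -0.59 (range -1.40 to -0.36), against -0.05 over all genes tested. It was -0.21 without diestrus replicate 3 and -0.37 without estrus replicate 1. The genes without overlap numbered 5 without estrus replicate 3 and 2 without estrus replicate 1 or diestrus replicate 1. With a library left out no share over all genes was computed, so nothing is read from these counts.

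Spleen showed no difference between the phases that passed the test. The test was limma on log2(FPKM + 1), run on genes whose mean in the tissue reached 1 FPKM, and a call needed an adjusted p of 0.05 or less and a change of 1 or more on the log2 scale. It called 0.00798% of the 12536 genes tested in spleen. Ms4a1 was at 322, 243 and 289 FPKM in estrus and at 327, 306 and 328 FPKM in diestrus, with a log2 fold change of -0.18 (SE 0.11, limma adjusted p = 0.930). It had the widest difference of the 8 genes in spleen, and the narrowest, Blk, was at 106, 95.0 and 102 FPKM against 108, 98.9 and 96.0 FPKM. The phases overlapped for all 8 genes in spleen, where 3.09% of the genes tested were higher and 5.70% lower in estrus without overlap. The mean was higher in estrus for 1 of the 8, against 47.6% of the genes tested. This count rested on estrus replicate 2. Without that library 4 of the 8 had the higher mean in estrus, with a median log2 fold change of 0.0013.

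Over spleen and the 11 tissues outside the choice of the genes, 15 of the 96 pairs of gene and tissue passed the limit on low values, 8 in spleen and 7 elsewhere. By limma 0 of the 15 were called and 0 had an unadjusted p under 0.05, where 0.00136% and 7.39% of all 147267 pairs of gene and tissue did. Cd79a in ovary came nearest, at 0.50, 1.08 and 0.70 FPKM in estrus and 1.13, 1.53 and 2.22 FPKM in diestrus. It passed the limit on low values only through diestrus, with a mean of 1.63 FPKM there and 0.76 FPKM in estrus. Its log2 fold change was -0.57 (SE 0.24, limma adjusted p = 0.838), and it was the only 1 of the 15 without overlap, against 6.06% of all pairs higher and 7.89% lower in estrus. An exact permutation test of 3 libraries against 3 cannot give a p below 0.1, and with SEs of up to 0.55 in these 15 pairs a change of 1 on the log2 scale could be missed.

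Outside spleen, duodenum, vein and aorta the 8 genes were low, and single genes departed from the others. Over the 66 libraries of these 11 tissues, Cd79a reached at most 3.29 FPKM and was at 1 FPKM or above in 22, and Cd79b in 14. Ms4a1, Pax5 and Cr2 were at 1 FPKM or above in 1, 0 and 0 of the 66. Kidney estrus replicate 3 was the highest library of its tissue for all 8 genes, with Cd79a at 2.81, Cd79b at 2.40 and Ms4a1 at 1.01 FPKM, where the other 5 kidney libraries had Ms4a1 at 0.04 to 0.18 FPKM.

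Some genes stood above the median of the set as a percent of spleen. Blk in heart was at 0.65, 0.56 and 1.18 FPKM in estrus and at 0.67, 0.42 and 0.64 FPKM in diestrus, which is 0.680% of spleen and 9.54 times the median of the 8 genes in heart. Fcer2a in stomach was at 1.33, 0.21 and 1.96 FPKM in estrus and at 0.26, 0.22 and 0.28 FPKM in diestrus, and in womb at 3.61 FPKM in estrus replicate 3 and 0.27 to 0.76 FPKM in the other 5 libraries. Cd79b in womb was at 3.59, 2.49 and 1.16 FPKM in estrus and at 3.27, 1.37 and 0.96 FPKM in diestrus, with Ms4a1 at 0.18 FPKM at most. Cr2 in kidney was at 0.23 to 0.46 FPKM, 0.308% of spleen, and Cd22 in ovary at 0.81 to 1.32 FPKM, 0.427% of spleen.

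Across the 84 libraries outside spleen, the 28 pairs of the 8 genes had a median Pearson r of 0.892 (range 0.789 to 0.964) on the log2(FPKM + 1) scale. In the 18 libraries of duodenum, vein and aorta the median r was 0.957, and in the 66 libraries of the other tissues it was 0.267. The libraries share tissues and the few high libraries carry the correlation, so these values are descriptions. Among the 10 genes most like the mean of the 8 over the 84 libraries were Siglecg (r = 0.975), Cxcr5 (0.964), Tnfrsf13c (0.957), Fcrla (0.956), Fcrl1 (0.952), Btla (0.945), Gpr18 (0.940), Slamf6 (0.934) and H2-Oa (0.919). Siglecg encodes an inhibitory lectin of B cells, and was at 29.6, 2.99 and 4.27 FPKM in duodenum in estrus and at 0.34, 0.92 and 0.78 FPKM in diestrus. Without duodenum estrus replicate 1 and vein estrus replicate 3, r was 0.933 for Siglecg and 0.805 for H2-Oa.

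Other B cell genes were counted over a list of 20. In duodenum 19 had a higher mean in estrus and 15 did not overlap, with a median log2 fold change of 1.43, and without estrus replicate 1 these were 19, 15 and 0.70. Cd37, a tetraspanin, was at 104, 14.8 and 20.0 FPKM in estrus and at 6.04, 6.73 and 5.85 FPKM in diestrus. Ly6d, which is also made in epithelia, was at 140.2, 24.0 and 21.6 FPKM in estrus and overlapped with diestrus at 17.2, 33.0 and 13.4 FPKM. In vein 15 of the 20 had the higher mean in estrus (median 0.91), and 5 without estrus replicate 3 (median -0.09). In aorta 0 of 20 did (median -0.59), and 3 without diestrus replicate 3 (median -0.23). In spleen 3 of the 20 did (median -0.07), and 12 without estrus replicate 2 (median 0.02).

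The genes of B cell receptor signalling, 19 in all, are shared with other blood cells. In duodenum 16 had the higher mean in estrus, 5 were higher and 1 lower without overlap, and the median was 0.54 on the log2 scale. Without estrus replicate 1, 11 had the higher mean, 5 were higher and 2 lower without overlap, and the median was 0.15. Dok3, an adaptor of B cells and macrophages, was at 40.4, 5.41 and 8.45 FPKM in estrus and at 3.61, 5.02 and 4.4 FPKM in diestrus. Syk, the kinase recruited by the CD79 chains, was at 28.6, 4.37 and 7.04 FPKM in estrus and at 4.29, 5.78 and 4.25 FPKM in diestrus, and overlapped. Ptpn6, the phosphatase recruited by CD22, overlapped as well, at 54.6, 17.2 and 22.8 FPKM in estrus and 13.6, 18.1 and 16.9 FPKM in diestrus. In vein 14 of the 19 had the higher mean in estrus (median 0.23, and -0.17 without estrus replicate 3). In aorta 3 did (median -0.40, and -0.12 without diestrus replicate 3). In spleen 6 did (median -0.03), and 9 without estrus replicate 2 (median -0.01).

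Germinal centre genes are made by B cells that divide in the follicles after meeting antigen. Of the 9 listed, 7 had the higher mean in estrus in duodenum and 4 did not overlap, and without estrus replicate 1 these were 6 and 4, with medians of 0.75 and 0.17. Bcl6, the transcription factor of the germinal centre that other tissues express too, was at 13.6, 7.44 and 7.72 FPKM in estrus and at 4.94, 3.10 and 2.31 FPKM in diestrus. Mef2b was at 18.02, 0.75 and 2.65 FPKM in estrus and at 0.37, 0.47 and 0.09 FPKM in diestrus, and Fas overlapped. Of the 9 genes, 6 had the higher mean in estrus in vein, 3 in aorta and 0 in spleen.

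Of the 16 plasma cell genes listed, 10 were found by symbol. The most abundant of these in spleen were Jchain, Mzb1 and Xbp1, and no gene of an antibody heavy or light chain. Over duodenum, vein and aorta Jchain came first, at a mean of 264 FPKM, so it weighs most in their sum. In duodenum 3 of the 10 had the higher mean in estrus, 0 were higher and 3 lower without overlap, and the median log2 fold change was -0.26, counts near the 32.8%, 4.51% and 22.1% over all genes tested there. Mzb1, a chaperone of secreted antibody, was at 38.4, 23.2 and 30.8 FPKM in estrus and at 23.0, 44.4 and 28.6 FPKM in diestrus. Xbp1, a regulator of secretion that gut epithelium also makes, had lower values in all 3 estrus libraries, at 138, 124 and 121 FPKM against 157, 197 and 163 FPKM. In vein 6 of the 10 had the higher mean in estrus, in aorta 1 and in spleen 7.

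Genes of T cells moved with the B cell genes in the same libraries. The list of T cells had 16 of 17 genes with the higher mean in estrus in duodenum, 12 of them without overlap, 1 gene lower without overlap, and a median of 0.56 (0.35 without estrus replicate 1). Their summed level there was 184, 132 and 115 FPKM in estrus and 80.1, 100.3 and 88.6 FPKM in diestrus, and no T cell gene of the list was at 0 in any library of the 3 tissues. The gain of estrus replicate 1 over the other libraries was much smaller for T cells than for the B cell genes, whose sum was 519, 69.5 and 101 FPKM in estrus and 24.7, 44.7 and 25.7 FPKM in diestrus. In vein, the T cell sum was 330 FPKM in estrus replicate 3 and 15.8 to 35.8 FPKM in the other 5 libraries, and 17 of 17 genes had the higher mean in estrus (13 without that library). In aorta it was 110.4 FPKM in diestrus replicate 3 and 10.9 to 22.6 FPKM in the others, and 0 of 17 had the higher mean in estrus (3 without that library). In spleen 0 of the 17 had the higher mean in estrus and 4 were lower without overlap (3 and 4 without estrus replicate 2).

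Genes of lymphoid stroma and of high endothelium, the vessels through which lymphocytes enter lymph nodes and Peyer's patches, stood out in the same libraries. Cxcl13, the chemokine that draws B cells into follicles, was at 113, 7.73 and 20.3 FPKM in duodenum in estrus and at 4.31, 2.69 and 2.00 FPKM in diestrus. Ccl19 was at 10.4, 4.80 and 3.06 FPKM in estrus and at 0.58, 0 and 0 FPKM in diestrus there. Glycam1, a secreted mucin of high endothelium that mammary gland also makes, was at 0, 44.2 and 191 FPKM in vein in estrus and at 0, 1.26 and 1.28 FPKM in diestrus. In aorta Glycam1 was at 337 FPKM in diestrus replicate 3 and at 0 to 0.14 FPKM in the other 5, and Ccl21a, a chemokine of T cell zones and lymphatic vessels, was at 262 FPKM against 12.1 to 28.0 FPKM. Ccl21a in vein was at 266 FPKM in estrus replicate 3 and at 59.6 to 145 FPKM in the others. Over the 9 genes, the sum was 694 FPKM in aorta diestrus replicate 3 against 50.02 to 63.9 FPKM, and 553 FPKM in vein estrus replicate 3 against 113 to 212 FPKM. In duodenum 7 of the 9 had the higher mean in estrus, 4 without overlap, and 2 the lower mean. Of these, Ltbr, a receptor of stromal cells and epithelium, was lower without overlap, at 62.1, 83.4 and 80.9 FPKM in estrus against 88.5, 89.8 and 91.6 FPKM. Chst4, named after its values were seen, had the lowest log2 fold change of the list, -1.05, and overlapped. In vein 7 of the 9 had the higher mean in estrus, all with overlap, and in spleen 6, all with overlap. In aorta 1 had the higher mean in estrus, and 2 were lower without overlap. The part of these cells in the levels of the B cell genes was not tested.

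**Figure D5:**
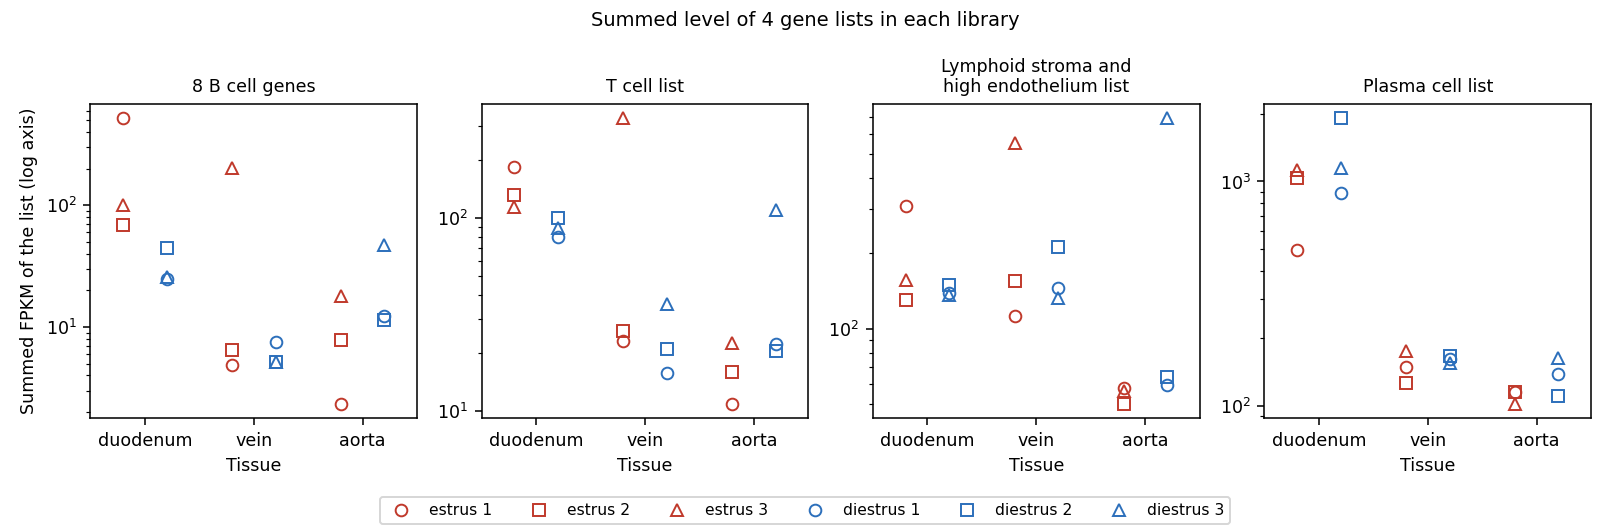
Summed FPKM (y axis, log scale) of the 8 B cell genes and of the lists for T cells, lymphoid stroma with high endothelium, and plasma cells in each library of duodenum, vein and aorta, red for estrus and blue for diestrus, with a symbol for each replicate. Vein estrus replicate 3 and aorta diestrus replicate 3 are the highest libraries of their tissue in all 4 panels, by a narrow margin for plasma cells, and duodenum estrus replicate 1 is highest of its tissue in the first 3 panels and lowest in the fourth.

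Genes common to all leukocytes moved in the same direction. The 6 on the list were all higher in duodenum in estrus without overlap, with a median of 1.02 (0.58 without estrus replicate 1). In vein 6 of 6 had the higher mean in estrus (median 0.66), and 0 of 6 without estrus replicate 3. In aorta 0 of 6 did, with a median of -1.01 (-0.48 without diestrus replicate 3). In spleen 0 of 6 did (1 without estrus replicate 2). In duodenum the 6 genes of proliferation moved the other way, lower in all estrus libraries without overlap, with a median of -1.36 and sums of 78.6, 23.8 and 98.0 FPKM in estrus against 183, 154 and 126 FPKM in diestrus. The part of these differences in the results on the B cell genes was not tested.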

How the data were processed

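RNA from 15 tissues of mice in estrus and diestrus was sequenced on the BGISEQ-500. The authors filtered reads with SOAPnuke, aligned them with Bowtie2 2.2.5 to GRCm38.p5, estimated abundance with RSEM 1.2.8 and deposited FPKM for 20414 genes in 90 libraries. The table names no unit. FPKM was inferred from the values, which are not whole and sum to different totals, and from RSEM giving FPKM. Counts were not recovered: only 61.5% to 83.5% of low values were whole reads within 0.2. A RefSeq table named 20265 of the genes by identifier. Tissue, phase and replicate came from the labels. The paper's methods give C57BL/6J mice of another age than the labels.

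The tests used limma 3.58.1 in R 4.3.3 with a trend, per tissue, on log2(FPKM + 1) for genes whose mean over the 6 libraries reached 1 FPKM, and Benjamini-Hochberg adjustment over the genes of that tissue. No block was used. Python 3.11.15, numpy 2.4.6, pandas 2.3.3 and matplotlib 3.10.9 did the rest. Depth was approximated from 988 genes with 1 transcript of 300 to 1500 bases. Libraries without overlap are those where the lowest value of a phase is above the highest of the other. Such separation is easier with a library left out, and shares over all genes were computed only with all 6 libraries of a tissue. The members and lists were chosen with earlier results of these data known. Named genes were the 8, the 10 most alike, and up to 3 of the most abundant of a list; genes that fell under this rule and are not named are not reported here. Lists covered other B cell genes, B cell receptor signalling, plasma cells, germinal centre, lymphoid stroma and high endothelium, follicle-associated epithelium, precursor lymphocytes, T cells, NK cells, macrophages, neutrophils, erythroid cells, proliferation and all leukocytes. Nothing in the labels says that a replicate number marks the same mouse in each tissue. Alternatives were the pseudocount, the filter, the scale, 1 fit of all libraries, the replicate block, other limits and each library left out.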

Additional observations from a re-analysis of the deposited data

Results flagged for a closer look

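Among genes and tissues with a mean of at least 1 FPKM, Pax5 was the 1 gene of the 8 whose phases did not overlap in 2 tissues and in opposite directions. Its log2 fold change was 2.64 in duodenum, where all 3 estrus libraries were higher, and -0.79 in aorta, where all 3 were lower. Both contrasts were among those used to choose the genes, so nothing is read from this. In aorta the gap between the phases was narrow. The Pax5 mean of 1.03 FPKM there rested on diestrus replicate 3 at 3.34 FPKM, and the other libraries reached 0.87 FPKM at most. The difference between the tissues was not tested.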

How the results depend on the processing

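No call was made among the 8 genes in spleen and the 11 other tissues under any of the 13 alternatives. These included leaving out brown adipose tissue estrus replicate 3, which was chosen after seeing the data. Unadjusted limma p-values under 0.05 numbered 0 to 6, the 6 without a filter on low values, where all 96 pairs of gene and tissue entered. Shares over all genes were not computed for the alternatives. In the main setting 0.00136% of all pairs were called, so 0 calls among so few pairs say little. With the replicate number as a block there were 0 calls and the median log2 fold changes were 2.46 in duodenum, 1.204 in vein and -0.59 in aorta, as without it. In 0 of 15 tissues did every pair of libraries with the same number deviate together at r over 0.1 (r from -0.57 to 0.47). With so few libraries in a phase this check cannot exclude that the numbers pair them. The median log2 fold change in duodenum was 3.96 with a pseudocount of 0.1. Over single libraries left out it ranged from 1.59 to 3.01 in duodenum, from -0.02 to 1.86 in vein, where -0.0228 came without estrus replicate 3, and from -0.84 to -0.21 in aorta. Tissues above 5% of spleen numbered 1 when the highest gene stood for the tissue, 1 at a limit of 2%, and 0 to 1 over replicates left out, the 1 being duodenum without diestrus replicate 1, 2 or 3. At these depths values under 0.2 FPKM rest on a few reads for a transcript of 1 kb, and on more for a longer transcript.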

Other observations

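Lists of further cell types were read in the same libraries, as values only. Of 7 neutrophil genes, all had the higher mean in estrus in spleen and 6 did not overlap, with a median log2 fold change of 1.36, against 3.09% of all genes tested there that were higher without overlap. By limma 0 of the 7 were called, and 5 had an unadjusted p under 0.05. Over spleen and the 11 other tissues together, 7.39% of all pairs of gene and tissue had such a p. No share was computed for spleen alone. Estrus replicate 2 had the highest sum, at 1432 FPKM against 439 and 431 FPKM in the other estrus libraries and 181 to 283 FPKM in diestrus, and without it the median was 0.71, with 6 genes without overlap. S100a9, a calcium-binding protein of neutrophils, was at 156, 497 and 167 FPKM in spleen in estrus and at 64.7, 96.9 and 108 FPKM in diestrus. The neutrophil sum in aorta was 104 FPKM in diestrus replicate 3 and 1.48 to 7.54 FPKM in the other libraries. In duodenum 6 of the 7 had the higher mean in estrus and in vein 5, all with overlap.

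Of 10 macrophage genes, 2 had the higher mean in estrus in duodenum (4 lower without overlap, where 32.8% and 22.1% of all genes tested were), 4 in vein, 0 in aorta and 10 in spleen. Of 6 NK cell genes these were 3, 4, 0 and 5, and of 6 erythroid genes 5, 6, 2 and 6. Follicle-associated epithelium, the cover of Peyer's patches, had 3 of 5 genes with the higher mean in estrus in duodenum (1 without estrus replicate 1), 1 in vein, 0 in aorta and 5 in spleen. Of 8 genes of precursor lymphocytes these were 4, 4, 2 and 1. Of the 6 proliferation genes, 0 had the higher mean in estrus in vein, 0 in aorta and 6 in spleen.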
